A study of Drosophila melanogaster with 13 samples.

Results

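The subject is a set of 76 Drosophila melanogaster genes that carry only a CG number and whose RNA was higher in testes of magn mutants than in control testes, while it was not higher in testes of the aly and sa mutants. They were chosen among 5209 genes with a CG number as their symbol on the array, so they are 1.46% of such genes. The choice used measured values: the mean log2 value of each of 2 magn allele combinations had to be at least 1 above the WT mean and at least 5, and the aly and sa means each had to be less than 0.75 above the WT mean. The probe set with the highest mean over 13 arrays stood for each gene. The differences of the members from WT are therefore given as a description, with no test.

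Whole testes of adult flies aged 0 to 1 day after eclosion, raised at 25 °C, were profiled on 13 Affymetrix arrays. The labels state that seminal vesicles and accessory glands were removed, yet genes of the accessory gland and duct were measured on every array. The median over 11 such genes was 9.07 to 13.96, which goes against complete removal. The magn testes came from 2 combinations of alleles with 2 arrays each, magn[12c]/magn[23b] and magn[12c]/magn[12c];pSC2, called the 23b and the pSC2 combination from here on. The labels do not say what pSC2 is. The aly testes were aly[2]/aly[5p] and the sa testes sa[1]/sa[2], with 3 arrays each, and the 3 control arrays came from red[1], e[1] flies, which the labels call WT. The arrays are called biological replicates, but separate crosses are not described, so p-values measure the spread between these samples. The strain backgrounds of the mutant alleles are not given in the labels, and their effect cannot be told apart from that of the mutations.

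A CG number is the provisional symbol that the fly genome project gave to a predicted gene, and genes keep it until someone names them, so the set is defined by a lack of study and not by a shared function. magn is an older name for mutations of Ubi-p63E, the polyubiquitin gene, which encodes a chain of ubiquitin units that supplies the cell with the tag for protein breakdown. aly encodes a subunit of the testis meiotic arrest complex and sa a testis form of a TATA-box-binding-protein-associated factor. Both are needed in spermatocytes to switch on genes of meiosis and spermatid differentiation, and their loss leaves testes filled with arrested spermatocytes.

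The mutated genes were checked first. Ubi-p63E had log2 values of 3.93 and 5.47 in the 23b combination and 3.88 and 3.59 in the pSC2 combination, against means of 14.71 in aly, 13.67 in sa and 14.76 in WT. The gene sa averaged 6.08 in sa testes and 11 in WT, while aly averaged 7.29 in aly testes and 6.17 in WT, so the probe set for aly gives no check of that label. Arrays of one genotype correlated with each other at r between 0.983 and 0.996 over all probe sets, and an array had 8822 to 9759 of its 18952 probe sets above 4 on the log2 scale. In this text a gene is called dim in a group when all arrays of the group are at or below 4. The deposited values end at a floor of 2.10. In whole testes, fewer cells of a type and less RNA per cell cannot be told apart.

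All 76 members passed the filter used for the tests, a log2 value above 4 on at least 3 of 13 arrays, which left 3628 CG genes and 8719 genes in all. Their median level was 8.55 over the 4 magn arrays, against 3.52 in aly, 5.42 in sa and 5.92 in WT. The median difference from WT was 1.85 on the log2 scale in magn, with a range of 1.10 to 6.50, and it was -0.79 in aly and -0.04 in sa. Over all 8719 tested genes the median difference from WT was 0.38 in magn, 0.77 in aly and 0.66 in sa. The limit of 0.75 lay close to the middle of all genes in aly and sa, so a member is a gene whose RNA in both was near or below that middle.

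For most members the rise was moderate. In the deposited values the smaller of the 2 combinations' differences from WT was at least 3 for 13 members, at least 2 for 25, and under 1.5 for 30. All 4 magn arrays were above all 3 WT arrays for 69 of 76 members, a pattern that 41% of all tested genes showed. All 4 magn arrays were above each of the other 9 arrays for 66 of 76, where 5.34% of tested genes had this order, but the rule itself selects for both patterns. The 10 members whose magn arrays overlapped with others were CG7214, CG31510, CG31999, CG8157, CG32106, CG31522, CG40245, CG31601, CG9628 and CG6700. The weakest rises inside the rule were those of CG5348, CG6700 and CG33252, with smaller differences of 1.00, 1.05 and 1.06, and the nearest genes outside it were CG30048, CG13426 and CG14743 at 0.999, 0.995 and 0.97.

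The demands on magn were met by 678 of 5209 CG genes, and the 76 members are 11.2% of them. In 504 of the others both aly and sa were 0.75 or more above WT, in 40 only aly was, and in 58 only sa was. The nearest members to this limit were CG14606, CG8157 and CG15279, whose higher difference in aly or sa was 0.74, 0.72 and 0.67, and the nearest genes beyond it were CG13937, CG10559 and CG31637 at 0.77, 0.80 and 0.82. For the level of 5 in magn, CG13728, CG17028 and CG34462 were just inside at 5.09, 5.10 and 5.13, and CG31122, CG33465 and CG7512 just outside at 4.95, 4.95 and 4.86.

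**Figure D1:**
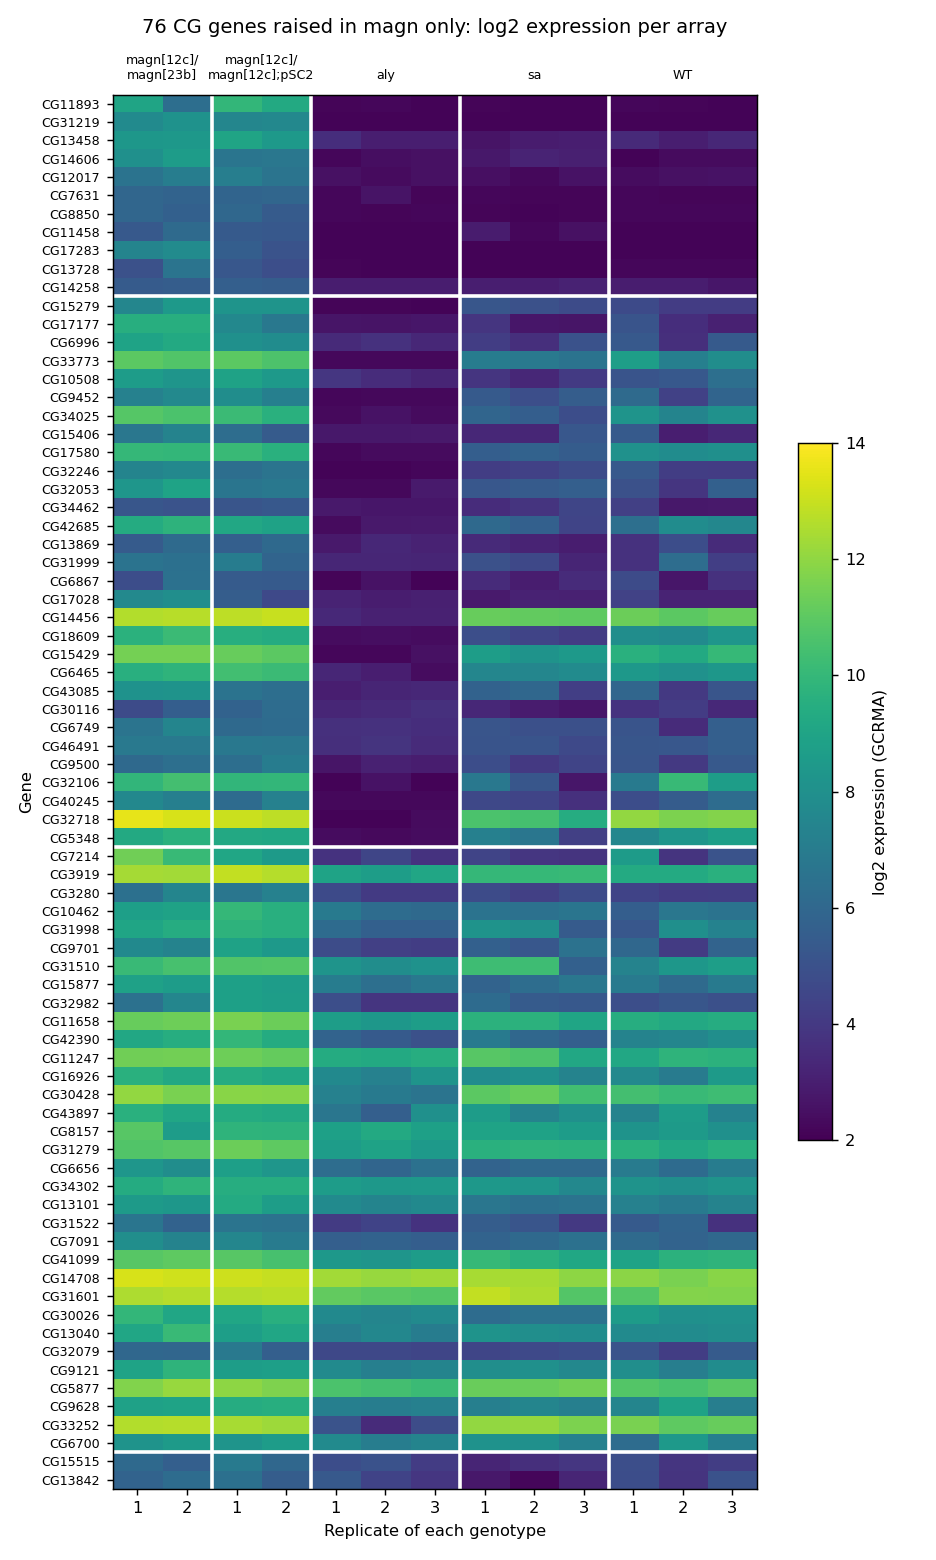
Log2 expression of the 76 members (rows) on the 13 arrays (columns, grouped by genotype, numbered by replicate), with colour from 2 to 14. White lines part the members that are dim outside magn (11, top), dim in aly but not in WT (30), measured in every genotype (33) and the other 2; the magn columns are the brightest in nearly every row, and the aly columns are dark in the upper 41 rows.

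The members fell into 3 main patterns by where else they were measured. For 11 of 76, or 14.5%, every array of aly, sa and WT was dim. These were the only members dim in WT, and 6.42% of tested CG genes were dim in WT. For 30, or 39.5%, every aly array was dim but at least 1 WT array was not, against 19.2% of tested CG genes. The rule caps aly and sa against WT, and a gene could pass the filter by its magn arrays alone. These shares are therefore in part set by the choice, and nothing is read from them. Another 33 had at least 1 array above 4 in each genotype. The other 2, CG15515 and CG13842, were dim in sa only.

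Members were ordered by the smaller of their 2 log2 differences from WT in the deposited values, and 8 of the first 10 in that order were dim outside magn. The order takes floor values as measured, so it does not rank these genes against members with a measured WT level. For the 11 members that were dim outside magn, the magn means ran from 5.44 to 8.65 with a median of 6.46, and the means in aly, sa and WT lay between 2.10 and 3.26. Since a dim value is only an upper bound, the ratios below take the level of 4 as the WT value and are given as at least so many fold.

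CG11893, a member of the ecdysteroid kinase-like family, came first in that order. Its log2 values were 9.0 and 6.36 in the 23b combination and 9.93 and 9.31 in the pSC2 combination, against 2.14, 2.23 and 2.12 in aly, 2.14, 2.11 and 2.13 in sa, and 2.20, 2.14 and 2.11 in WT. The ratio of magn to WT was at least 25.1-fold, and 1 of the magn arrays stood well below the other 3. CG31219, a predicted serine protease, was even among the magn arrays, with 7.76 and 8.10 in the 23b combination and 7.52 and 7.59 in the pSC2 combination, against 2.11 to 2.12 on all 9 other arrays. It was at least 13.4-fold higher in magn than in WT. CG13458 had 8.33 and 8.41 in the 23b combination and 9.0 and 8.44 in the pSC2 combination, against 3.59, 3.01 and 3.01 in aly, 2.64, 2.91 and 3.01 in sa, and 3.44, 3.01 and 3.33 in WT. Its magn mean was at least 23.4-fold above WT, with no overlap between magn and any other genotype.

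CG14606, a sugar-transporter-like protein of the major facilitator superfamily, was higher in one combination than in the other. It had 8.02 and 8.65 in the 23b combination and 6.69 and 6.76 in the pSC2 combination, against 2.21, 2.43 and 2.56 in aly, 2.76, 3.17 and 3.06 in sa, and 2.10, 2.34 and 2.34 in WT. All 9 other arrays lay more than 3 units below the lowest magn array. CG12017 had 6.59 and 7.10 in the 23b combination and 7.13 and 6.60 in the pSC2 combination, against 2.54, 2.35 and 2.52 in aly, 2.50, 2.24 and 2.59 in sa, and 2.41, 2.53 and 2.57 in WT. CG14606 was at least 11.5-fold and CG12017 at least 7.24-fold higher in magn than in WT.

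CG7631, a predicted astacin-type metalloprotease, had 5.95 and 5.81 in the 23b combination and 5.85 and 5.97 in the pSC2 combination, against 2.19, 2.63 and 2.16 in aly, 2.22, 2.16 and 2.16 in sa, and 2.23, 2.15 and 2.16 in WT. Its 4 magn arrays lay close together, far above all others. CG8850, a sodium-coupled amino acid transporter, had 5.95 and 5.67 in the 23b combination and 6.03 and 5.45 in the pSC2 combination, against 2.13 to 2.20 on the 9 other arrays. CG11458 had 5.37 and 6.14 in the 23b combination and 5.41 and 5.32 in the pSC2 combination, against 2.12 on each aly array, 2.91, 2.19 and 2.55 in sa, and 2.12 on each WT array. These 3 genes were at least 3.72-fold, 3.42-fold and 2.95-fold higher in magn than in WT, in the order given.

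The remaining members of this pattern were CG17283, CG13728 and CG14258. CG17283 lay at the floor of 2.10 on all 9 arrays outside magn, and had 7.40 and 7.79 in the 23b combination and 5.59 and 5.07 in the pSC2 combination. CG13728 averaged 5.44 ± 0.81 over the 4 magn arrays and 2.20 ± 0.01 over the 3 WT arrays (SD). CG14258 averaged 5.53 ± 0.08 over the 4 magn arrays and 2.88 ± 0.13 over the 3 WT arrays (SD). Their magn levels were at least 5.51-fold, 2.71-fold and 2.89-fold above WT.

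**Figure D2:**
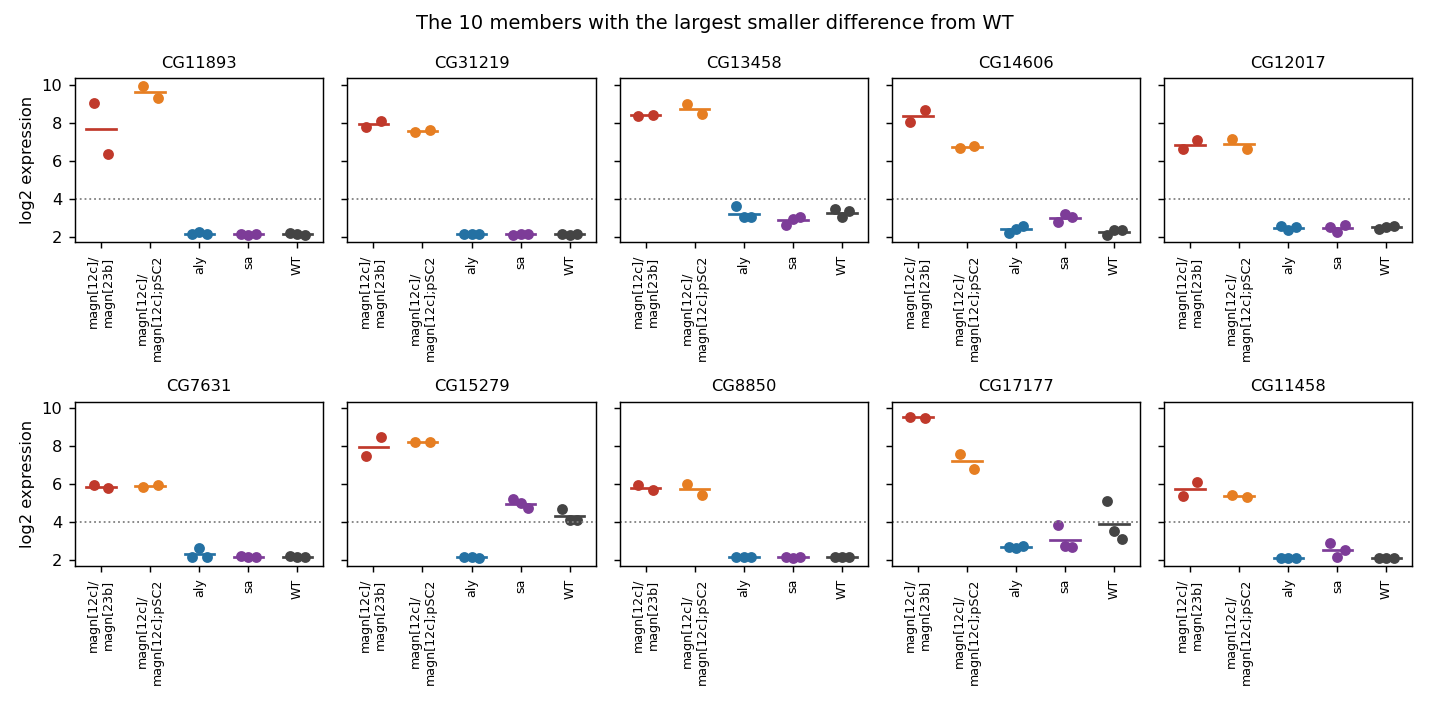
Log2 expression of the first 10 members by the smaller log2 difference from WT in the deposited values, 1 point per array and a line at each group's mean, with the 2 magn combinations on the left and WT on the right of each panel. The dotted line marks the level of 4; 8 of the genes stay below it on every array outside magn, and CG15279 and CG17177 cross it in WT.

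The 30 members that were dim in aly but not in WT had a median level of 7.89 in magn, against 2.69 in aly, 4.94 in sa and 5.21 in WT. They include the other 2 of the first 10 members. CG15279, another sodium-coupled amino acid transporter, had 7.50 and 8.47 in the 23b combination and 8.21 and 8.23 in the pSC2 combination, against 2.15, 2.18 and 2.13 in aly, 5.22, 5.00 and 4.73 in sa, and 4.72, 4.12 and 4.11 in WT. The sa arrays were thus slightly above WT, and the aly arrays near the floor. CG17177 had 9.52 and 9.51 in the 23b combination and 7.62 and 6.82 in the pSC2 combination, against 2.68, 2.65 and 2.74 in aly, 3.85, 2.74 and 2.68 in sa, and 5.13, 3.55 and 3.11 in WT. Only 1 of its WT arrays was above 4.

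Several genes of this pattern were already high in WT, and were higher still on the magn arrays. CG32718, the member with the highest WT level, had 13.55, 13.27, 13.05 and 12.81 on the magn arrays, against 2.11, 2.10 and 2.37 in aly, 10.61, 10.47 and 9.42 in sa, and 12.05, 11.63 and 11.75 in WT. CG14456 had 12.62, 12.71, 12.79 and 12.98 on the magn arrays, against 3.38, 3.08 and 3.10 in aly, 11.21, 11.12 and 11.03 in sa, and 11.30, 10.97 and 11.21 in WT. Its sa and WT arrays overlapped, while the magn arrays were above both and the aly arrays far below. CG15429 averaged 11.28 ± 0.25 over the 4 magn arrays, against 2.33 ± 0.19 in aly, 8.43 ± 0.27 in sa and 9.64 ± 0.36 in WT (SD, 3 arrays each).

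CG6996, CG33773 and CG10508 came next in the same order within this pattern. CG6996 had 8.96, 9.31, 8.01 and 7.84 on the magn arrays, against 3.43, 3.71 and 3.32 in aly, 4.17, 3.62 and 5.01 in sa, and 5.37, 3.60 and 5.42 in WT. CG33773 had 10.95, 10.73, 10.96 and 10.64 on the magn arrays, against 2.28 on each aly array, 7.05, 6.86 and 6.59 in sa, and 8.73, 7.19 and 7.87 in WT. The sa arrays of CG33773 all lay below its WT arrays, whereas those of CG6996 overlapped with WT. CG10508 had 8.63, 8.26, 8.90 and 8.43 on the magn arrays, against 3.89, 3.52 and 3.26 in aly, 3.86, 3.33 and 4.03 in sa, and 5.13, 5.28 and 6.37 in WT. The aly and sa arrays were all below the WT arrays for this gene.

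CG34025 and CG17580 were ordered magn, WT, sa and aly from high to low, with no overlap between the 4 genotypes. CG34025 had 10.82, 10.60, 10.16 and 9.64 on the magn arrays, against 2.30, 2.57 and 2.34 in aly, 5.90, 5.59 and 4.86 in sa, and 8.23, 7.43 and 8.06 in WT. CG17580 had 9.98, 9.93, 10.13 and 9.61 on the magn arrays, against 2.19, 2.37 and 2.37 in aly, 5.60, 5.77 and 5.48 in sa, and 8.06, 7.84 and 7.96 in WT. CG46491 showed the same order at a lower level, with 6.84, 6.85, 6.80 and 6.75 on the magn arrays, against 3.61, 3.79 and 3.48 in aly, 5.13, 5.10 and 4.64 in sa, and 5.23, 5.24 and 5.65 in WT.

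The remaining genes of this pattern were mostly faint. CG32246, CG13869, CG6867, CG43085, CG30116, CG6749, CG9500 and CG34462 had magn means between 5.18 and 7.30 and WT means between 3.29 and 5.04. CG9500 is a fibrinogen-like protein and CG34462 a cuticular protein. CG9500 had 6.09, 6.38, 6.35 and 7.05 on the magn arrays, against 2.69, 3.10 and 2.94 in aly, 4.83, 3.99 and 4.44 in sa, and 5.17, 3.98 and 5.36 in WT. CG34462 had 5.19, 5.06, 5.14 and 5.31 on the magn arrays, against 2.81, 2.71 and 2.71 in aly, 3.53, 3.81 and 4.51 in sa, and 4.25, 2.77 and 2.84 in WT, so it was near the limit of measurement outside magn. CG32106 was the least even of the 30, with 9.90, 10.41, 9.89 and 9.94 on the magn arrays, against 6.83, 5.22 and 2.71 in sa, and 6.96, 10.11 and 8.69 in WT. A single WT array of it lay among the magn arrays.

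The rule caps the aly and sa means against WT, which removes genes that are much higher in either. How many members lay below WT is therefore in part set by the choice. The same counts for other tested genes are not given here, so nothing is read from the members' counts. The aly mean was below the WT mean for 60 of 76 members, by at least 1 unit for 31. With dim aly arrays taken as 4, it was below WT by at least 1 unit for 21 members, and by at least 5 units for CG14456, CG15429, CG32718 and CG33252. The sa mean was below WT for 43 members, by at least 1 unit for 15 in the deposited values. Of those 4 genes only CG33252 was not dim in aly, and it had 5.08, 3.47 and 4.78 on the aly arrays, against 12.04, 12.11 and 11.62 in sa and 11.57, 11.01 and 11.22 in WT.

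The 33 members measured in every genotype had a median level of 9.44 in magn, against 7.23 in aly, 7.81 in sa and 7.77 in WT. Their median difference from WT in magn was 1.56. CG7214 and CG3919 had the largest rises of this pattern. CG3919 had 12.36, 12.33, 12.90 and 12.66 on the magn arrays, against 8.96, 8.67 and 9.10 in aly, 9.99, 10.06 and 10.08 in sa, and 9.35, 9.35 and 9.64 in WT. The groups of CG3919 did not overlap, with magn on top and aly at the bottom. CG7214 had 11.42, 10.08, 9.11 and 8.52 on the magn arrays, against 3.77, 4.52 and 3.74 in aly, 4.46, 3.91 and 3.78 in sa, and 8.57, 3.79 and 5.07 in WT. Here 1 WT array reached the lowest magn array, and the WT mean rests on it.

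CG3280 and CG10462 had about the same level in aly, sa and WT. CG3280 had 6.42, 7.45, 6.72 and 7.27 on the magn arrays, against 4.70, 4.04 and 4.04 in aly, 4.76, 4.29 and 4.73 in sa, and 4.44, 4.15 and 4.17 in WT. CG10462 had 8.79, 8.91, 10 and 9.57 on the magn arrays, against 6.88, 6.22 and 6.09 in aly, 6.59, 6.50 and 6.68 in sa, and 5.61, 6.74 and 6.59 in WT. For both genes the groups other than magn overlapped, and no magn array overlapped with any of them. CG30428 differed in that its aly arrays were far below WT, with 12.07, 11.59, 11.87 and 11.82 on the magn arrays, against 7.28, 6.89 and 6.64 in aly, 10.95, 11.20 and 10.35 in sa, and 10.41, 10.12 and 10.26 in WT.

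Smaller rises of even arrays were common in this pattern. CG31279 had 10.74, 10.89, 11.32 and 11.01 on the magn arrays, against 8.65, 8.91 and 8.51 in aly, 9.62, 9.77 and 9.70 in sa, and 9.60, 9.21 and 9.55 in WT. CG15877 had 8.86, 8.63, 8.80 and 8.62 on the magn arrays, against 7.05, 6.38 and 6.80 in aly, 5.82, 6.30 and 6.75 in sa, and 6.90, 6.13 and 6.88 in WT. CG34302 averaged 9.52 ± 0.19 in magn, against 8.50 ± 0.12 in aly, 8.10 ± 0.43 in sa and 8.12 ± 0.11 in WT (SD, 4 magn and 3 other arrays each). In all 3 genes the magn arrays were above every other array. CG41099, an ankyrin-repeat protein related to rabankyrin, averaged 10.83 ± 0.22 in magn, against 8.43 ± 0.19 in aly, 9.61 ± 0.44 in sa and 9.50 ± 0.45 in WT. CG5877 averaged 11.88 ± 0.22 in magn, against 10.41 ± 0.21 in aly, 11.31 ± 0.10 in sa and 10.75 ± 0.19 in WT. In CG42390, CG11247, CG16926, CG43897, CG13040, CG32079 and CG9121 the magn arrays were also above every other array. Their magn means were 6.12 to 11.34 and their WT means 4.89 to 9.59. Of these genes, CG11247, CG32079 and CG9121 left the set without WT replicate 2.

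Uneven WT or magn arrays marked other genes of this pattern. CG6700 had 8.15, 8.54, 8.22 and 8.65 on the magn arrays, against 6.23, 8.48 and 7.17 in WT, so the groups overlapped. CG6700 left the set without WT replicate 1, 2 or 3, and also without 23b replicate 2, pSC2 replicate 2 or sa replicate 3. CG9628 had 8.85, 8.95, 9.44 and 9.50 on the magn arrays, against 7.44, 8.91 and 7.15 in WT. CG8157 had 10.88, 8.61, 9.81 and 9.75 on the magn arrays, against 8.80, 9.29 and 8.80 in aly, 8.97, 8.91 and 8.65 in sa, and 8.15, 8.54 and 8.03 in WT. Here 1 magn array, at 8.61, lay below every aly and sa array and just above the highest WT array.

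The highest WT levels among members were those of CG32718, CG14708 and CG31601, at 11.81, 11.80 and 11.42. CG14708 had 13.27, 13.14, 13.06 and 12.92 on the magn arrays, against 12.34, 12.14 and 12.30 in aly, 12.43, 12.44 and 11.97 in sa, and 11.93, 11.58 and 11.88 in WT. The lowest WT levels were those of CG17283, CG31219 and CG11458, all at 2.10 to 2.12. The median WT level of the members, 5.92, lay below the 8.94 of all tested CG genes.

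Functions that are known for single members from their protein families are varied, and the genes of this paragraph were singled out after their values were seen. Apart from CG14606, CG15279 and CG8850, the transporters included CG15406, a sugar-transporter-like protein, and CG7091, of the SLC17 family. CG15406 averaged 6.46 ± 0.80 in magn and 3.92 ± 1.29 in WT, and CG7091 averaged 7.45 ± 0.38 in magn and 6.03 ± 0.17 in WT (SD, 4 and 3 arrays). CG18609 and CG31522 belong to the fatty acid elongases, which lengthen long-chain fatty acids. CG18609 averaged 9.69 ± 0.35 in magn, against 2.43 ± 0.01 in aly, 4.48 ± 0.38 in sa and 7.98 ± 0.30 in WT, so both other mutants were far below WT. CG31522 averaged 6.40 ± 0.42 in magn and 5.00 ± 1.13 in WT, and its groups overlapped.

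Among the enzymes, CG9452 and CG6656 are histidine acid phosphatases, CG17028 is an inositol monophosphatase, CG6465 an aminoacylase and CG9701 a glycosidase related to klotho. CG9452 averaged 7.50 ± 0.32 in magn, against 2.24 ± 0.04 in aly, 5.29 ± 0.35 in sa and 5.45 ± 0.98 in WT. CG6656 averaged 8.32 ± 0.37 in magn, against 6.22 ± 0.28 in aly, 6.01 ± 0.15 in sa and 6.74 ± 0.47 in WT. CG6465 averaged 9.99 ± 0.35 in magn, against 2.91 ± 0.46 in aly, 7.60 ± 0.17 in sa and 8.27 ± 0.18 in WT. CG9701 had 7.69, 7.38, 8.90 and 8.45 on the magn arrays, against 6.0, 4.09 and 5.80 in WT, without overlap. CG11658, an F-box protein of the kind that picks substrates for SCF ubiquitin ligases, had 11.20, 11.35, 11.58 and 11.32 on the magn arrays, against 8.67, 8.34 and 8.67 in aly, 9.70, 9.72 and 9.05 in sa, and 9.46, 9.24 and 9.43 in WT. All 4 of its magn arrays were above every other array.

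The 2 allele combinations were set against each other, a contrast that the rule did not use, although its demands on both limit how far a member can differ between them. The shares of members called are therefore given beside those of other genes with nothing read from them. Of 76 members, 5 were higher in the 23b combination and 2 were lower there, which is 6.58% and 2.63% of the members. Among all tested genes 7.94% were higher and 2.14% lower, and among tested CG genes 12.8% and 1.82%. Genes were called at a Benjamini-Hochberg adjusted p under 0.05 in limma over all tested genes and at least a 2-fold change. The other 69 members were not called, and 51 of 76 had combination means within 0.5 of each other. The median difference of the members was 0.06 on the log2 scale, against -0.10 for all tested genes.

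CG17028, the inositol monophosphatase, differed most. It had 7.63 and 7.92 in the 23b combination, against 5.56 and 4.64 in the pSC2 combination, and both arrays of the 23b combination were above both others. The log2 difference was 2.68 (SE 0.41, limma adjusted p = 0.000856). CG17283 and CG17177, whose arrays are given above, differed by 2.26 (SE 0.26, limma adjusted p = 0.000138) and 2.30 (SE 0.57, limma adjusted p = 0.0159). CG32053 had 8.31 and 8.96 in the 23b combination, against 6.68 and 6.80 in the pSC2 combination, a log2 difference of 1.89 (SE 0.48, limma adjusted p = 0.0183). CG14606 differed by 1.61 (SE 0.29, limma adjusted p = 0.00254). All 5 genes had both arrays of the 23b combination above both arrays of the pSC2 combination. CG14606, CG17283 and CG17028 were called in all 19 alternative analyses. Those that left out an aly, sa or WT array changed only the shared spread and not the difference. CG17177 was not called without either 23b array or pSC2 replicate 2, nor CG32053 without 23b replicate 2 or either pSC2 array, with limma adjusted p up to 0.143 and 0.125.

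The 2 members that were lower in the 23b combination were CG11893 and CG32982. CG32982 had 6.48 and 7.50 in the 23b combination, against 8.83 and 8.67 in the pSC2 combination, a log2 difference of -1.76 (SE 0.44, limma adjusted p = 0.0166). CG11893 differed by -1.94 (SE 0.59, limma adjusted p = 0.0397). It was called in 9 of 19 alternative analyses, was lost without replicate 2 of the 23b combination, either pSC2 array, any aly array, sa replicate 2 or WT replicate 3, and was -0.61 without that 23b array at 6.36. CG32982 was not called without replicate 1 of the 23b combination or either pSC2 array, with centring on ribosomal protein genes, or with only the 4 magn arrays in the fit, and its limma adjusted p reached 0.132. The SE of a gene comes from a spread shared by all 5 groups. CG11893, CG14606 and CG17283 were dim outside magn, where arrays near the floor vary little, so their SE and p can be too small.

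**Figure D3:**
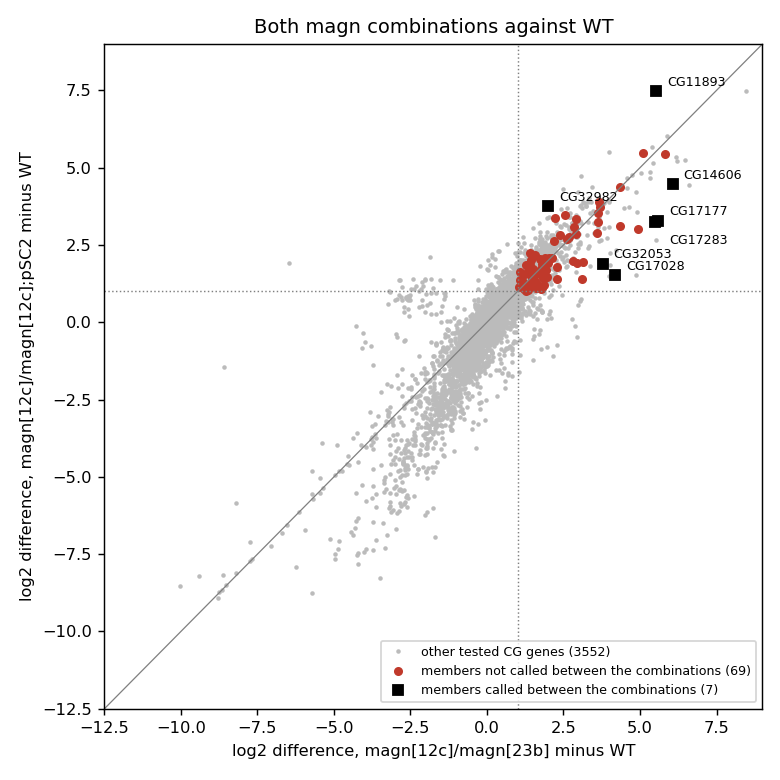
Log2 difference from WT in the 23b combination (horizontal) and in the pSC2 combination (vertical) for 3628 tested CG genes, with the 76 members in red and black and dotted lines at the rule's threshold of 1. Members called between the combinations (black squares, 7) are labelled; 5 lie below the diagonal of equal differences and 2 above it.

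The accessory gland and duct markers differed between the combinations as well. Their median was 10.3 and 10.4 on the 23b arrays, against 13.3 and 13.4 on the pSC2 arrays, and 10.6 to 13.96 on the WT arrays, where 1 array stood above the other 2. Their part in the differences among members was not tested.

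The difference between aly and sa was the other contrast that the rule did not use. The rule does cap both means, which removes genes that are much higher in either, so the shares of members called are in part set by the choice and nothing is read from them. Of 76 members, 29 were lower in aly than in sa and 4 were higher, or 38.2% and 5.26%. Over all tested genes 21.2% were lower and 18.8% higher, and over tested CG genes 29.9% and 18.3%, all in limma with the thresholds given above. The median difference of the members was -0.80 on the log2 scale, against 0.05 for all tested genes. Of the 29 lower calls, 21 were of members that are dim in aly, which by that definition sit low there, and 8 were of members measured in every genotype. Taking the dim aly arrays as 4, sa was at least 2-fold higher for 13 of the 21, and for the other 8, among them CG34462, CG40245, CG32246 and CG9500, the 2-fold size depends on values below 4. The other 43 members were not called, of which 5 had an adjusted p under 0.05 but less than a 2-fold difference.

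In the deposited values the largest of these differences were those of CG32718, CG14456, CG33252, CG15429 and CG6465. CG32718 was lower in aly by 7.97 log2 units in the fit (-7.97, SE 0.26, limma adjusted p = 9.40e-12), and taking the dim aly arrays as 4 it was at least 71.7-fold higher in sa. CG14456 differed by -7.93 (SE 0.15, limma adjusted p = 8.51e-14), at least 139-fold higher in sa on the same terms. CG33252, with 2 of 3 aly arrays above 4, differed by -7.48 (SE 0.32, limma adjusted p = 1.63e-10). CG15429 and CG6465 differed by -6.10 (SE 0.23, limma adjusted p = 3.18e-11) and -4.68 (SE 0.25, limma adjusted p = 1.51e-09), at least 21.6-fold and 12.1-fold higher in sa. For each of these genes all 3 aly arrays were below all 3 sa arrays.

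The 4 members that were higher in aly were CG13842, CG30026, CG15515 and CG13101. CG13842 had 5.34, 4.42 and 3.90 in aly, against 2.76, 2.21 and 3.27 in sa, a log2 difference of 1.81 (SE 0.44, limma adjusted p = 0.00291). Its sa arrays were dim, and taking them as 4 it was at least 1.47-fold higher in aly. CG30026 had 7.70, 7.47 and 7.76 in aly, against 6.23, 6.51 and 6.51 in sa, a log2 difference of 1.23 (SE 0.25, limma adjusted p = 0.000943). CG15515 differed by 1.07 (SE 0.36, limma adjusted p = 0.0216), or at least 1.57-fold on the same terms, since its sa arrays were dim as well. CG13101 differed by 1.02 (SE 0.23, limma adjusted p = 0.00179). In all 4 the aly arrays were above the sa arrays without overlap. CG15515 was not called without aly replicate 1 or 2 or sa replicate 1, nor CG13101 without aly replicate 1 or 3 or sa replicate 2, where their differences were as low as 0.88 and 0.95.

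**Figure D4:**
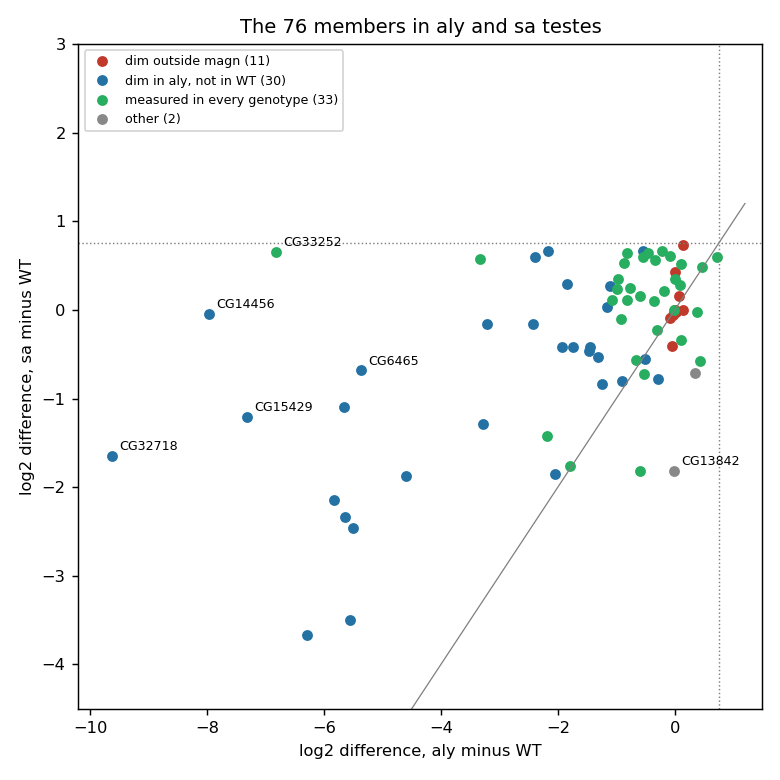
Log2 difference from WT in aly (horizontal) and in sa (vertical) for the 76 members, coloured by pattern, with dotted lines at the rule's limit of 0.75 and a diagonal of equal differences. The members that are dim in aly but not in WT spread to the left as far as -9.62 (CG32718), while the members that are dim outside magn sit near 0 on both axes.

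Chromosomes were read from RefSeq's annotation of the assembly Release 6 plus ISO1 MT. It held 74 of the 76 members, all as protein-coding genes. CG3280 and CG40245 were not found in it. Chromosome 3 carried 44 of the 74, or 59.5%, against 43.6% of 3605 placed tested CG genes, and the left arm alone carried 26, or 35.1%, against 19.2%. The X carried 4, or 5.41%, against 16.9%, and chromosome 4 carried 2, or 2.70%, against 0.222%. The arms 2L, 2R and 3R carried 17.6%, 14.9% and 24.3% of the members, against 20.1%, 19.2% and 24.4% of the tested CG genes.

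Ubi-p63E, aly and sa all lie on the left arm of chromosome 3, and the part of that chromosome's strain origin in the members' values was not tested. Within 1 Mb of Ubi-p63E there were 3 members, CG12017, CG32246 and CG34025, or 11.5% of the members on the left arm, where 11.3% of the tested CG genes of that arm lay as near. The only 2 members within 20 kb of each other were CG31998 and CG31999 on chromosome 4, with 9.06 kb between them. CG31998 had 9.04, 9.44, 9.75 and 9.55 on the magn arrays, against 5.24, 7.96 and 7.31 in WT, and CG31999 had 6.58, 6.44, 7.06 and 5.85, against 3.70, 6.28 and 4.21. The median span of a member gene was 2479 bp, against 1776 bp for tested CG genes.

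**Figure D5:**
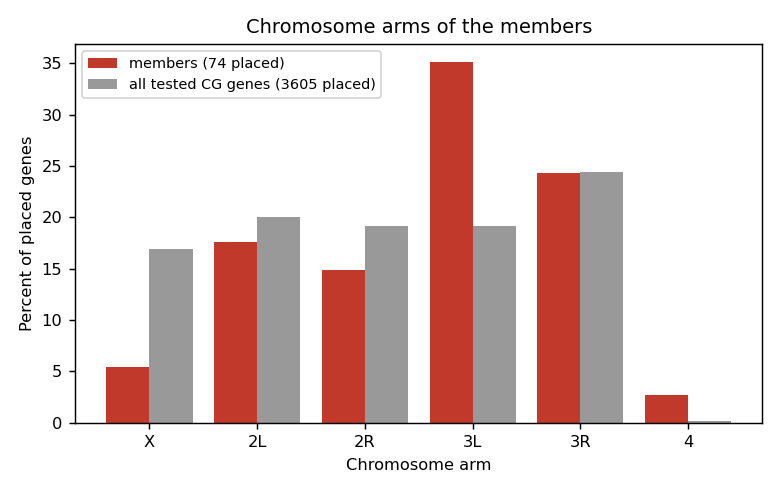
Share of the 74 placed members (red) and of the 3605 placed tested CG genes (grey) on each chromosome arm, in percent, from a bar base of 0. The members' bar is higher on 3L (35.1% against 19.2%) and on 4, lower on X (5.41% against 16.9%), and nearly equal on 3R.

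Most members rest on a single probe set. A second look was possible for 7, which had 10 further probe sets, of which 5 were dim on all 13 arrays. Of the other 5, those of CG10508 and CG32982 also met the rule. The further probe set of CG32982 averaged 7.05 in the 23b combination and 8.74 in the pSC2 combination, against 3.42 in aly, 4.15 in sa and 3.53 in WT. One further probe set each of CG10508, CG42685 and CG30116 did not meet it. That of CG42685 averaged 5.80 in the 23b combination and 2.89 in the pSC2 combination, against 2.17 in WT.

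Membership depended on single arrays for many of the genes. Leaving out each array in turn gave sets of 68 to 82 genes, and 40 of the 76 members stayed in the set each time. Among the members 28.9% of values on WT replicate 2 and 25% on WT replicate 1 were more than 1 unit off the mean of the other WT arrays, against 10.4% and 6.27% of tested genes. The same held for 18.4% on sa replicate 3, against 9.45%. Without WT replicate 1, 2 or 3, the members that left the set numbered 12, 13 and 8. Without sa replicate 3, 10 members left it, among them CG31510, which had 10.30, 10.28 and 5.70 on the sa arrays.

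How the arrays were scaled against each other also changed the set. With each array centred on the median of 23 genes for ribosomal proteins, the magn values shifted against WT by -0.93 in the 23b combination and -1.17 in the pSC2 combination, the aly values by -1.39 and the sa values by -1.44. The rule then chose 52 genes, 23 of them members: 10 of the 11 that were dim outside magn, 5 of the 30 that were dim in aly but not in WT, and 8 of the 33 measured in every genotype. The 14 members that stayed in the set under quantile normalization, both centrings and every left-out array were CG11893, CG31219, CG13458, CG12017, CG7631, CG8850, CG17177, CG6996, CG7214, CG3919, CG33773, CG10508, CG3280 and CG10462.

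Genes outside the set were read on the same arrays to see what else differed in magn. In limma 29.3% of all tested genes were higher in magn than in WT and 14.6% lower. Of 16 measured genes of ubiquitin supply and recycling, 5 rose and 1 fell, with a median difference of 0.58 on the log2 scale against 0.38 for all tested genes. Ubi-p63E itself fell by 10.55, and the deubiquitinase Usp14 and the ubiquitin fusion genes RpL40 and RpS27A rose by 1.52, 1.23 and 1.17 (limma adjusted p = 1.10e-07, 1.12e-06 and 3.36e-07). Of 26 general proteasome genes 9 rose and none fell, with a median of 0.63 and the core subunits Prosbeta2, Prosalpha6 and Prosbeta4 at 2.01, 1.69 and 1.62. Of 13 testis paralogs of proteasome genes 1 rose and 6 fell, with a median of -0.62 and Prosalpha3T at -2.63. With the ribosomal protein centring none of the ubiquitin genes rose and 5 fell, none of the general proteasome genes rose and 1 fell, and 10 of the testis paralogs fell. RpL40 and RpS27A are themselves among the genes used for that centring, so the loss of their calls is in part set by it.

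In the other lists 3 of 14 stress response genes rose and none fell (median 0.51), and 2 of 6 innate immunity genes rose and 1 fell (median 0.84). The median level of the stress list was 11.5 to 12.0 in magn, 11.7 to 11.9 in aly, 12.1 to 12.5 in sa and 11.3 to 11.4 in WT. Of the germline markers, 1 of 6 early germline genes rose and 2 fell, 5 of 12 spermatocyte genes rose, and 3 of 12 spermatid genes fell. The spermatid median was 12.5 to 13.3 on the magn arrays, against 6.19 to 6.54 in aly, 10.1 to 10.9 in sa and 13.5 to 13.6 in WT. Of 6 cyst and hub markers 2 rose, and of 8 sheath muscle markers 2 rose and 1 fell. Of 6 fat body genes 1 rose and 2 fell, of 2 neuron genes 1 fell, and neither of 2 gut and Malpighian tubule genes was called. Of 11 accessory gland and duct genes 1 rose, which was Ebp, and none of the Acp genes was called. With the ribosomal protein centring the stress genes that rose and fell numbered 1 and 3, the immunity genes 1 and 1, the spermatocyte genes 0 and 3, the spermatid genes 0 and 10, the cyst and hub markers 1 and 1, and the sheath muscle markers 0 and 2. The early germline genes then numbered 1 and 3, the accessory gland and duct genes 1 and 7, and the fat body genes 0 and 4. The neuron genes numbered 0 and 2, and the gut and Malpighian tubule genes 0 and 0.

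Of 9 hemocyte and basement membrane markers 5 rose and 1 fell, with a median difference of 1.13, and with the ribosomal protein centring 3 rose and 1 fell. Hml, the hemolectin of blood cells, had 7.63, 7.74, 7.71 and 7.53 on the magn arrays, against 6.62 to 7.30 in aly, 4.32 to 5.05 in sa and 3.62 to 4.06 in WT. The log2 of the summed level of the list was 11.5 to 12.5 in magn, 11.7 to 12.4 in aly, 12.2 to 12.3 in sa and 10.98 to 11.2 in WT. By this measure aly and sa were within the magn range. The median of the list was 7.88 to 8.54 in magn, 6.70 to 7.58 in aly, 7.53 to 7.99 in sa and 7.01 to 7.67 in WT. By the median, all aly arrays were below the magn arrays, and the sa arrays overlapped with both magn and WT. eater, a phagocytic receptor of the same cells, was dim on every array. The part of other cell types in the members' values was not tested.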

How the data were processed

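Total RNA of whole testes was labelled with a 3' IVT kit and hybridised to 1 array per sample, per the labels' protocols. The deposited values are log2 probe set levels that the authors made with GCRMA, per the submitters' processing notes, whose version is not given in the sources used here. GCRMA corrects for background by probe sequence and puts many dim probe sets at a common floor, so differences of dim genes are uncertain, and the number of arrays limits the precision.

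Probe sets were named through the platform table. Of 18952, 13647 have 1 gene symbol, 402 several and 4903 are unnamed here. The probe set with the highest mean over 13 arrays stood for a gene. A gene was tested if its log2 value was above 4 on at least 3 arrays. One linear model with 5 groups was fitted with limma 3.58.1 in R 4.3.3 (lmFit, eBayes with trend). Genes were called at a Benjamini-Hochberg adjusted p under 0.05 and at least 2-fold, and the steps were tested on simulated data. Python 3.11.15 gave means and counts (pandas 2.3.3, numpy 2.4.6) and drew the figures (matplotlib 3.10.9).

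The members, the gene lists and the cell type markers were chosen with earlier results of these data known. Named with every array were the 10 members with the largest smaller difference from WT. Also named were the members nearest the thresholds, up to 5 called in each direction, members within 20 kb of each other, members with a known function, and the 3 highest and 3 lowest in WT. Of each list of other genes, up to 3 with the largest called change could be named. Promoter and protein sequences were not used here, and the planned search for promoter motifs was not run. Replicate numbers were not treated as pairs in the main fit. Of 23 same-numbered pairs of arrays, 7 had deviations correlated above 0.1 and 11 below 0, with r from -0.27 to 0.24. Differently numbered pairs were not set beside them, so this does not show whether the numbers mark a pairing.

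Alternatives were quantile normalization, centring on ribosomal protein genes or on the median, another probe set per gene, no filter, no trend, the replicate block, only the arrays compared, other thresholds of the rule, and leaving out each array.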

Additional observations from a re-analysis of the deposited data

Results flagged for a closer look

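For 7 members the change against WT differed between the 2 magn combinations in the linear model, each with a limma adjusted p given above. As log2 differences of the 23b minus the pSC2 combination, CG17028 was at 2.68, CG17177 at 2.30, CG17283 at 2.26, CG32053 at 1.89 and CG14606 at 1.61. CG11893 was at -1.94 and CG32982 at -1.76. Each combination had only 2 arrays.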

How the results depend on the processing

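With a rise of at least 1.5 in place of 1, the rule chose 46 genes in place of 76. Members higher in the 23b combination numbered 5, and 3 to 8 when an array was left out. Those lower there numbered 2, against 1 without the filter on dim genes, 1 with centring on ribosomal protein genes, 0 with only the 4 magn arrays in the fit, and 0 to 2 when an array was left out. With that fit of 4 arrays, CG11893 and CG32982 were the members whose calls were lost. Members higher in aly than in sa numbered 4, against 7 with quantile normalization and 2 to 4 when an array was left out, and those lower numbered 26 to 33. With the replicate number as a block (replicate block), the counts were 5 and 2 between the magn combinations and 4 and 29 between aly and sa, as without it. Over all gene lists, 36 genes were higher and 18 lower in magn, against 9 and 53 with centring on ribosomal protein genes. That centring lowers every difference of magn from WT. For single genes, 703 results under an alternative kept direction and call, 57 kept direction and lost the call, and none reversed. Many of these alternatives left out an array of a genotype outside the comparison, which cannot change the direction. A group of 2 or 3 arrays, a floor that hides how dim a gene is, and unknown strain backgrounds limit all of these values.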

Other observations

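The same rule applied to genes with a name was met by 116 of 6773, or 1.71%. First in the same order was Eig71Eg, a gene induced by ecdysone, with means of 7.36 in the 23b combination and 7.88 in the pSC2 combination, against 2.10 in aly, sa and WT. Cyp316a1, a cytochrome P450 gene, had means of 7.64 and 7.02 in the combinations, against 2.11 in aly, 2.45 in sa and 2.11 in WT. phyl, a partner of the ubiquitin ligase sina in the developing eye, had means of 7.25 and 6.89, against 2.44 in aly, 2.85 in sa and 2.57 in WT. Of the 116, 14.7% were dim outside magn and 10.3% were dim in aly but not in WT, where the CG members had 14.5% and 39.5%. Chromosome 4 held 8 of the 116, or 6.90%. The shares of all named genes on that chromosome, or with these patterns, were not computed, so nothing is read from these percentages. These 3 genes and this comparison were chosen after the values were seen, and no test was made.

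Among 5122 of the probe sets with no gene symbol or with several, 33 met the same rule, or 0.644%.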
